A study of Mus musculus with 2 samples.

Results

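Of the 21887 protein-coding genes measured, the 8 described here encode proteins through which liver macrophages and other antigen-presenting cells signal to T cells. They were taken by name: Cd80, Cd86, Icosl, Cd40, Cd274, Pdcd1lg2, Havcr2 and Lgals9. All 8 were found in the gene table. Accessibility was counted as unique DNA fragments overlapping each gene body with 2 kb on both sides, and in 1 kb tiles across the same windows.

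A T cell that recognises antigen also reads further signals from the presenting cell. CD80 and CD86 engage the activating receptor CD28 and its inhibitory relative CTLA-4, ICOSL engages ICOS, and CD40 is the receptor through which helper T cells activate the presenting cell. PD-L1 (Cd274) and PD-L2 (Pdcd1lg2) engage the inhibitory receptor PD-1, while TIM-3 (Havcr2) is an inhibitory receptor found on T cells and on myeloid cells, and galectin-9 (Lgals9) is one of its described ligands. Kupffer cells, the resident macrophages of the liver sinusoids, and sinusoidal endothelial cells are both known to present antigen, often with a tolerant outcome.

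The data are droplet-based single-nucleus ATAC-seq, in which a transposase cuts accessible DNA, from liver cells other than hepatocytes that had been pulled down with beads against the macrophage surface protein F4/80. There was 1 library from a Spta sph/sph mouse, whose alpha-spectrin mutation gives fragile red blood cells, and 1 from a Spta wt/wt littermate, both untreated males of 8 to 10 weeks. The barcodes end in 1 or 2, and nothing used here ties a suffix to a genotype, so values are given for library 2 and library 1 and no genotype is compared. With 1 library per genotype and no replicates, no test across samples was possible, and every interval is a 95% interval that covers counting error only.

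The deposited calls marked 575 cells in library 2 and 637 in library 1, against a target of 8000 nuclei per sample, and no barcode sequence was shared between the called cells (0 shared). Cells of library 2 had a median of 53.7% of their fragments in peaks, against 72.1% in library 1. Local pile-ups, in which a single cell had many fragments within 20 kb, held 12.1% of the fragments of library 2 and 0.661% of those of library 1. After filters on peaks and blacklisted regions, 562 and 609 cells were clustered without the bins over the 8 genes. Kupffer-like cells numbered 177 in library 2 and 320 in library 1, and endothelial-like cells 137 and 125. The libraries filled these classes through different clusters. Of the Kupffer-like cells, 176 of library 2 fell in cluster 2, while 210 and 98 of library 1 fell in clusters 1 and 7. Of the endothelial-like cells, 136 of library 2 fell in cluster 4 and 111 of library 1 in cluster 6. Clusters 2 and 4 had none of their own markers among their 10 leading genes, so their names rest on the marker scores. All 10 Kupffer cell markers had higher levels in Kupffer-like cells and all 12 endothelial markers in endothelial-like cells, in each library. The classes were named by these same markers, so this is not an independent check of the names. Cluster 5, with 80 and 52 cells from library 2 and library 1, scored highest for monocyte markers and had the dendritic cell gene Flt3 among its leading genes, and it was left unnamed.

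Promoter sequences from RefSeq (GRCm38.p6) were available for 6 of the 8 genes, not for Cd86 and Cd40. Those of 4 genes are shown because their start regions behave differently in the data that follow. The Havcr2 start was open in Kupffer-like cells and cluster 5, and the Lgals9 start in Kupffer-like, endothelial-like and cluster 5 cells. In Kupffer-like cells the Icosl start was seen mainly in library 1, and the Pdcd1lg2 start was closed although the gene interior is open. Each line gives 300 bases on the coding strand, 5′ to 3′, with motif matches in capitals.
Havcr2, chr11:46454681-46454980, plus strand: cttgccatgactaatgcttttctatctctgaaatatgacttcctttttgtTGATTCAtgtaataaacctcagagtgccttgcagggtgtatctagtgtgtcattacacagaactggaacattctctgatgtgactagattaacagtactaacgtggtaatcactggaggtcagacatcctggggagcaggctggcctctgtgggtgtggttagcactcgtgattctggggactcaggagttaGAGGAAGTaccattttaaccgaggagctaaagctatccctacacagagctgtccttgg
Lgals9, chr11:78984875-78985174, minus strand: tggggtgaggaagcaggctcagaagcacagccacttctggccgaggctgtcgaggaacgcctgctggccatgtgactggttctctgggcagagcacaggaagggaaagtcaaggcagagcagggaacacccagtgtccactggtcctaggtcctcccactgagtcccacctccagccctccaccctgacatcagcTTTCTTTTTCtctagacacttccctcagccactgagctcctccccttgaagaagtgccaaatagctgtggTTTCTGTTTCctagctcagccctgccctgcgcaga
Icosl, chr10:78069118-78069417, plus strand: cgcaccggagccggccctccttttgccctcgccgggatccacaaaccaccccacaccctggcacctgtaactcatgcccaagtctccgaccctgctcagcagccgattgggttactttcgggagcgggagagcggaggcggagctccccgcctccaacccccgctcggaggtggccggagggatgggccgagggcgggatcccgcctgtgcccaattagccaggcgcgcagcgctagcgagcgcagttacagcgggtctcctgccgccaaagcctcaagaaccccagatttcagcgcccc
Pdcd1lg2, chr19:29410669-29410968, plus strand: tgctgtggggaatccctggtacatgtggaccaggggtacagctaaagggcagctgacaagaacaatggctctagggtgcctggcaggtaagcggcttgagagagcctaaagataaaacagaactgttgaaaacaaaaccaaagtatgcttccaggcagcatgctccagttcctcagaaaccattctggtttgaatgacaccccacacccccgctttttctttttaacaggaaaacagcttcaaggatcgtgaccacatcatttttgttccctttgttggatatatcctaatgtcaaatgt

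A set of 7 motifs was searched on both strands in all 32851 RefSeq promoters, with positions of the first base counted from the start. The Havcr2 promoter held GAGGAAGT, the motif of the myeloid factor PU.1, at -8. At -200 it held TGATTCA, a match to the AP-1-like pattern TGANTCA, whose free middle base makes it looser than the AP-1 site. PU.1 matches occurred in 3.20% of all promoters and matches to the AP-1-like pattern in 7.81%. The Lgals9 promoter held the reverse of the interferon regulatory factor motif (GAAA, 2 free bases, GAAA) at -55 and again at 16, a motif found in 3.44% of promoters. Cd80 had the same AP-1-like match, TGATTCA, at -42 and no other match. The promoters of Cd274, Pdcd1lg2 and Icosl held none of these letters, nor did any of the 6 promoters hold the NF-kappaB motif (GGG, 2 free bases, TTTCC), found in 1.63% of promoters, or its narrower form with GGGA, 1 free base and TTTCC (0.411%), the STAT motif TTCNNNGAA (8.30%) or the E-box CACGTG (7.15%). Icosl had 26 CpG dinucleotides and Cd274 had 15, while the other 4 promoters had 3 or 4, against a median of 7 over all promoters.

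**Figure D1:**
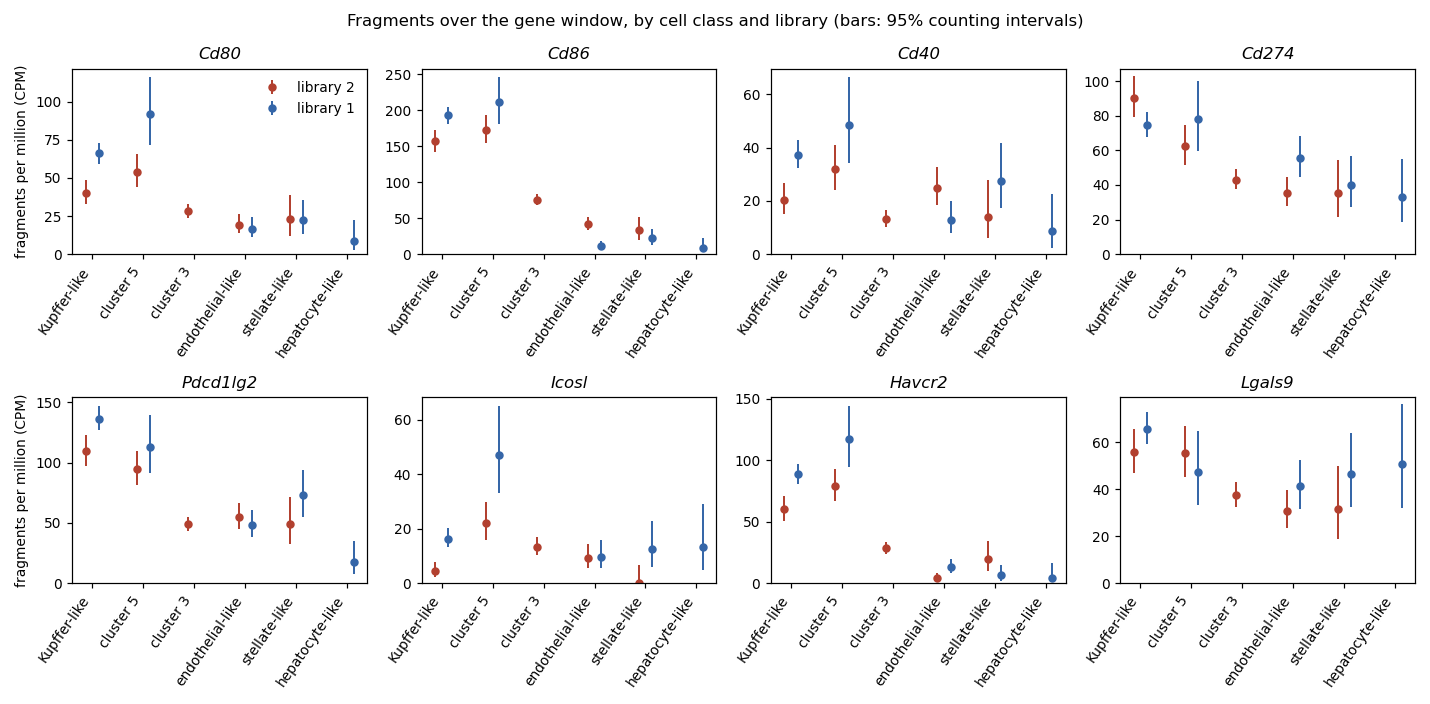
Accessibility of the 8 genes by cell class and library, as fragments over the gene window in CPM of the class (vertical axis), with library 2 left of library 1 in each class. Points are levels and bars 95% counting intervals, and a class with under 20 cells in a library is not drawn. Kupffer-like cells and cluster 5 hold the highest levels for Cd80, Cd86 and Havcr2, whereas Lgals9 is spread over all classes.

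The CD28 ligands. Cd86 (chr16:36568956-36666158) was the gene with the most fragments of the 8 in Kupffer-like cells, at 157 CPM (142 to 173) in library 2 beside 193 CPM (181 to 205) in library 1. Endothelial-like cells stood at 41.6 CPM (33.0 to 51.6) in library 2 but at 11.6 CPM (6.88 to 18.4) in library 1. At least 1 Cd86 fragment was seen in 70.1% of Kupffer-like cells of library 2 and 85.3% of those of library 1, against 22.6% and 12.0% of endothelial-like cells. With each cell thinned to 5000 fragments these shares were 52.2% and 60.5% in Kupffer-like cells, and 11.5% and 4.00% in endothelial-like cells. The classes therefore did not overlap in level in either library, and the gap was wider in library 1. Ratios are given throughout on the log2 scale, with the median gene of each comparison set to 0. The Cd86 ratio between Kupffer-like and endothelial-like cells was 1.89 (1.55 to 2.25) in library 2, against 4.02 (3.39 to 4.82) in library 1. In library 2, a single endothelial-like cell gave 21 of the 82 fragments, and the level was 35.0 CPM with pile-ups masked.

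The open parts of Cd86 lay toward its upper-coordinate end, which the gene table used here gives with no strand. Read along the chromosome, the strongest 1 kb tile was centred 58.5 kb from the gene's lower-coordinate end, with 55 and 114 Kupffer-like fragments in library 2 and library 1 against 4 and 2 endothelial-like fragments. The tile at 87.5 kb held 49 and 88 Kupffer-like fragments against 2 and 0. Another at 97.5 kb held 31 and 68 Kupffer-like fragments against 2 and 0, and covers the upper-coordinate end of the gene. Several separate open sites carried the Cd86 signal, and the 3 strongest tiles held 28.8% of its Kupffer-like tile counts in library 2 and 21.9% in library 1.

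Cd80 (chr16:38457430-38495958), the second CD28 ligand, was less accessible. Kupffer-like cells had 40.2 CPM (32.8 to 48.9) in library 2, with 66.0 CPM (59.4 to 73.2) in library 1, and endothelial-like cells 19.3 CPM (13.6 to 26.4) and 16.8 CPM (11.0 to 24.6). The ratios over endothelial-like cells were 1.03 (0.49 to 1.62) and 1.96 (1.41 to 2.62). One tile at the lower-coordinate end held 41 and 136 Kupffer-like fragments in library 2 and library 1, against 1 and 6 endothelial-like fragments. This tile lies 1.4 kb upstream of the promoter given by RefSeq, whose own 300 bases held 7 and 33 Kupffer-like fragments. The endothelial-like signal lay elsewhere: a tile at 19.1 kb, which overlaps the pseudogene Gm8590, had 19 and 8 endothelial-like fragments beside 16 and 35 Kupffer-like ones. The Cd80 window also overlaps the end of Timmdc1, the lncRNA Gm41453 and the pseudogene Ck-ps3, and ATAC fragments carry no strand.

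Icosl (chr10:78069368-78079525), the ligand of ICOS, showed the widest gap between the libraries among the 8 genes in Kupffer-like cells. The 11 fragments of Kupffer-like cells of library 2 came to 4.38 CPM (2.19 to 7.84), and the 90 of library 1 to 16.3 CPM (13.1 to 20.1). The log2 ratio of library 2 over library 1 was -1.65 (-2.76 to -0.80). Endothelial-like cells had overlapping intervals in the libraries, at 9.12 CPM (5.41 to 14.4) and 9.68 CPM (5.42 to 16.0). Most of the signal came from the tile at the start, whose CpG-rich promoter is printed above, with 9 of 12 Kupffer-like tile counts in library 2 and 73 of 95 in library 1. In endothelial-like cells the same tile held 15 and 10 fragments, and in cluster 5 it held 33 and 28. The ratio of Kupffer-like over endothelial-like cells in library 1 was 0.72 (-0.04 to 1.66), an interval that included 0. In library 2 it was -1.06 (-2.31 to 0.08), on 29 fragments of both classes together, under the minimum of 50. The lncRNA Gm51775 overlaps this tile.

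Icosl was highest in cluster 5, at 22.1 CPM (15.8 to 29.9) in library 2 but 47.2 CPM (33.2 to 65.0) in library 1. Kupffer-like cells were below cluster 5 by log2 ratios of -2.10 (-3.25 to -1.16) in library 2 but -1.44 (-1.99 to -0.83) in library 1, a comparison added after the data were seen. Cluster 5 itself had less Icosl in library 2 than in library 1, at -1.02 (-1.70 to -0.34). In endothelial-like cells the ratio of library 2 over library 1 was 0.10 (-0.96 to 1.20) on 18 and 15 fragments, and the difference of this ratio from the others was not tested.

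Cd40 (chr2:165055614-165071654), the receptor of CD40 ligand, was, beside the sparse Icosl, a gene whose order of classes differed between the libraries. Library 2 had 20.3 CPM (15.1 to 26.7) in Kupffer-like and 24.8 CPM (18.4 to 32.8) in endothelial-like cells, while library 1 had 37.2 CPM (32.3 to 42.7) and 12.9 CPM (7.88 to 19.9). The ratios over endothelial-like cells were -0.32 (-0.91 to 0.28) and 1.50 (0.87 to 2.28). The intervals of the classes overlap in library 2 and do not in library 1, where the ratio was 0.56 with cells thinned to 5000 fragments. The tile with the most fragments was at the lower-coordinate end, with 19 of 56 Kupffer-like tile counts in library 2 and 87 of 218 in library 1, and with 30 and 14 endothelial-like fragments. A second open stretch from 4.9 to 6.9 kb was seen in Kupffer-like cells, where its 3 tiles held 11, 9 and 4 fragments in library 2 and 30, 38 and 31 in library 1, against 0 to 2 endothelial-like fragments per tile.

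The PD-1 ligands are neighbours on chromosome 19, with 22824 bases from the end of Cd274 (chr19:29362107-29388095) to the start of Pdcd1lg2 (chr19:29410919-29472927). Over the whole window, both were higher in Kupffer-like than in endothelial-like cells. The start region of Cd274 was open in both classes, while that of Pdcd1lg2 was closed. Cd274 had 90.4 CPM (79.1 to 103) in Kupffer-like cells of library 2 and 74.6 CPM (67.5 to 82.1) in those of library 1, against 35.5 CPM (27.7 to 44.8) and 55.5 CPM (44.4 to 68.5) in endothelial-like cells. The ratios were 1.32 (0.93 to 1.73) and 0.43 (0.10 to 0.79). Cd274 was the 1 gene of the 8 whose Kupffer-like level, relative to the median gene, was higher in library 2 with an interval clear of 0, at 0.47 (0.23 to 0.71).

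The start region of Cd274 was open in both classes. The tile over its RefSeq promoter, at 5.4 kb from the lower-coordinate end, held 35 and 74 Kupffer-like fragments in library 2 and library 1 and 29 and 44 endothelial-like fragments, with ratios of -0.11 (-0.86 to 0.66) and -1.08 (-1.63 to -0.50). Other parts of the window were seen mainly in Kupffer-like cells. The tile next to it, at 4.4 kb, had 20 and 59 Kupffer-like fragments against 2 and 3 endothelial-like ones, and a tile at 23.4 kb had 34 and 52 against 3 and 4. The tile with the most fragments, at -0.6 kb with 46 and 80 Kupffer-like and 21 and 19 endothelial-like fragments, holds the annotated start of Plgrkt, a gene on the opposite strand that the window overlaps, so its fragments cannot be assigned to either gene. The Plgrkt gene body runs up to base 29367292, covering the tile at 4.4 kb and part of the tile at 5.4 kb. Fragments of these tiles cannot be assigned to either gene alone. The lncRNA Gm36043 overlaps the window as well, and its annotated start at base 29384951 lies next to the tile at 23.4 kb.

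Pdcd1lg2 had 109.6 CPM (97.0 to 123) in Kupffer-like cells of library 2 and 136 CPM, on 752 fragments, in those of library 1, against 54.7 CPM (44.9 to 66.1) and 48.4 CPM (38.1 to 60.7) in endothelial-like cells. The ratios were 0.97 (0.65 to 1.31) and 1.49 (1.16 to 1.87). In library 2, 1 endothelial-like cell gave 37 of the 108 fragments, and with pile-ups masked the ratio was 1.43. The annotated start was closed in all of these cells: its 2 kb window held 0 and 1 Kupffer-like fragments and no endothelial-like fragments (0 in each library), and the promoter printed above held 0 and 1. Accessibility lay inside the gene instead, in tiles at 8.6 and 9.6 kb with 42 and 36 Kupffer-like fragments in library 2 and 86 and 93 in library 1, and in 4 adjoining tiles from 50.6 to 53.6 kb with 34 to 41 fragments in library 2 and 48 to 83 in library 1. Endothelial-like cells had at most 7 fragments in any of these 6 tiles. They had their own site at 59.6 kb, with 10 and 29 endothelial-like fragments in library 2 and library 1 against 0 and 16 Kupffer-like ones.

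**Figure D2:**
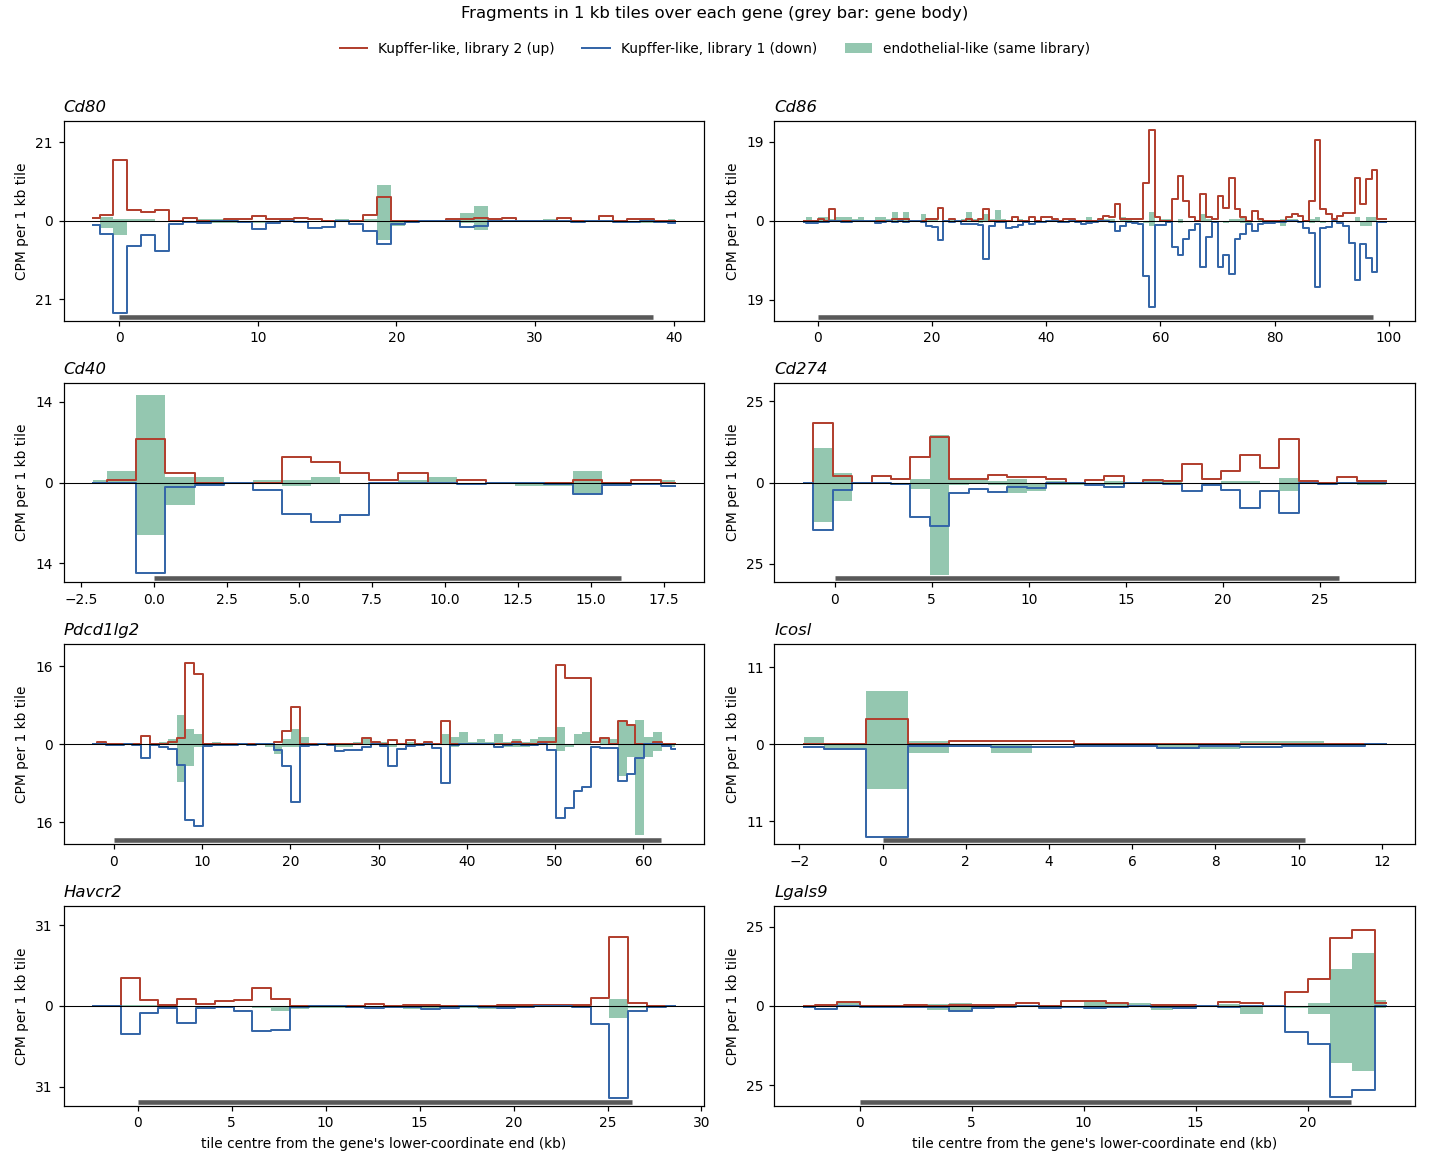
Fragments in 1 kb tiles across each gene window, in CPM of the class (vertical axis), against the distance of the tile centre from the gene's lower-coordinate end in kb; library 2 points up and library 1 down. Red and blue lines are Kupffer-like cells, green areas endothelial-like cells of the same library and grey bars gene bodies. Pdcd1lg2 is closed at its start and open inside, Havcr2 peaks 25.6 kb into the gene, and the Lgals9 start and the Cd274 promoter at 5.4 kb are open in both classes.

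TIM-3 and its ligand differed in how many classes they were open in. Havcr2 (chr11:46454931-46481255) had 60.2 CPM (50.9 to 70.6) in Kupffer-like cells of library 2 and 88.5 CPM (80.9 to 96.8) in those of library 1, against 4.05 CPM (1.75 to 7.99) and 12.9 CPM (7.88 to 19.9) in endothelial-like cells. A fragment was seen in 40.7% of Kupffer-like cells of library 2 and 67.8% of those of library 1, against 5.11% and 8.80% of endothelial-like cells. The ratios were 3.78 (2.85 to 5.10) and 2.75 (2.14 to 3.51). The tile at the start held 27 and 60 Kupffer-like fragments in library 2 and library 1 against 1 and 0 endothelial-like fragments. The promoter printed above, with its PU.1 and AP-1-like letters, held 27 and 58 against 1 and 0. Cluster 5 had 28 and 20 fragments in this promoter, on fewer fragments in all than Kupffer-like cells. The strongest tile was not at the start but 25.6 kb away, at chr11:46480001-46481000 near the other end of the gene. It had 66 and 194 Kupffer-like fragments against 5 and 7 endothelial-like ones, with ratios of 3.22 (2.05 to 5.02) and 2.88 (1.90 to 4.31).

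Lgals9 (chr11:78962979-78984924) was open in every class. Kupffer-like cells had 55.8 CPM (46.9 to 65.8) in library 2, beside 65.9 CPM (59.3 to 73.0) in library 1, endothelial-like cells 30.9 CPM (23.6 to 39.7) and 41.3 CPM (31.8 to 52.7), and the 28 hepatocyte-like cells of library 1 had 50.8 CPM (32.2 to 76.3). The Kupffer-like ratios over endothelial-like cells were 0.82 (0.38 to 1.28) and 0.67 (0.29 to 1.09), both under 2-fold. The 2 tiles at the start held most of it, with 54 and 60 Kupffer-like and 23 and 33 endothelial-like fragments in library 2, and 159 and 146 Kupffer-like and 28 and 32 endothelial-like fragments in library 1. The next tile into the gene, 1.4 kb from the start, was seen mainly in Kupffer-like cells, with 21 and 66 fragments in library 2 and library 1 against 2 and 4 in endothelial-like cells.

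Per kb of window, the order of levels in Kupffer-like cells differed between the libraries. This scale also reflects how much closed DNA a window holds, as windows ran from 14.2 kb for Icosl to 101 kb for Cd86. The Cd274 value includes the tile at the Plgrkt start, with 46 and 80 fragments in library 2 and library 1. Library 2 was led by Cd274 at 3.02 CPM per kb (2.64 to 3.43), with an interval above that of Lgals9 at 2.15 (1.81 to 2.54), while Lgals9, Havcr2 at 1.98 (1.68 to 2.33), Pdcd1lg2 at 1.66 (1.47 to 1.87) and Cd86 at 1.55 (1.40 to 1.71) each overlapped the next in the order. Cd40 at 1.01 (0.755 to 1.33) and Cd80 at 0.946 (0.771 to 1.15) followed, below Cd86, and Icosl was last at 0.310 (0.155 to 0.554). Library 1 was led by Havcr2 at 2.92 CPM per kb (2.67 to 3.19), and each gene overlapped the next from Havcr2 through Lgals9 at 2.54 (2.28 to 2.81) to Cd274 at 2.49 (2.25 to 2.74). Pdcd1lg2 at 2.07 (1.92 to 2.22), Cd86 at 1.90 (1.79 to 2.02), Cd40 at 1.86 (1.61 to 2.13) and Cd80 at 1.55 (1.40 to 1.72) formed another run of overlapping neighbours, and Icosl was again last, at 1.15 (0.928 to 1.42), an interval that just met that of Cd80. Within library 1, clusters 1 and 7 had overlapping intervals for all 8 genes. The largest difference in CPM between them was for Cd86, with 181 CPM (166 to 198) in cluster 7 and 204 CPM (187 to 221) in cluster 1.

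Counted together, 4 of the 7 genes with 50 fragments were at least 2-fold higher in Kupffer-like than in endothelial-like cells of library 2, namely Cd80, Cd86, Cd274 and Havcr2, where 10.0% of all genes tested were. In library 1, 5 of 8 were, namely Cd80, Cd86, Cd40, Pdcd1lg2 and Havcr2, against 12.2% of all genes. None was 2-fold lower in either library (0 and 0), against 11.0% and 9.57% of all genes. The median over the genes was 1.03 in library 2 and 1.50 in library 1, where the median of all genes is 0 by construction. Cd80, Cd86 and Havcr2 passed in both libraries, Cd80 in library 2 only narrowly. Without flanks the Cd80 ratio in library 2 was 0.74, which ended its call, while Lgals9 entered at 1.28. Cd274 in library 2 fell under 2-fold, to 0.80, with cells thinned, and Pdcd1lg2 entered there at 1.43 with pile-ups masked. Within 1 kb of the gene start alone, where 3 genes in library 2 and 6 in library 1 reached 50 fragments, the medians were 0.25 and 0.87, and 0 and 2 genes were 2-fold higher. Kupffer-like and endothelial-like cells also differ in the markers of other cells. With pile-ups masked, the 7 monocyte markers summed to 103 and 138 CPM in Kupffer-like cells of library 2 and library 1. In endothelial-like cells they summed to 74.1 and 47.4 CPM. Other lists went the other way. The 7 conventional dendritic cell markers summed to 206 and 280.1 CPM in Kupffer-like and 228 and 409 CPM in endothelial-like cells. The 8 T cell markers summed to 84.4 and 115 CPM against 163 and 206 CPM. The part of these differences in the ratios was not tested.

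**Figure D3:**
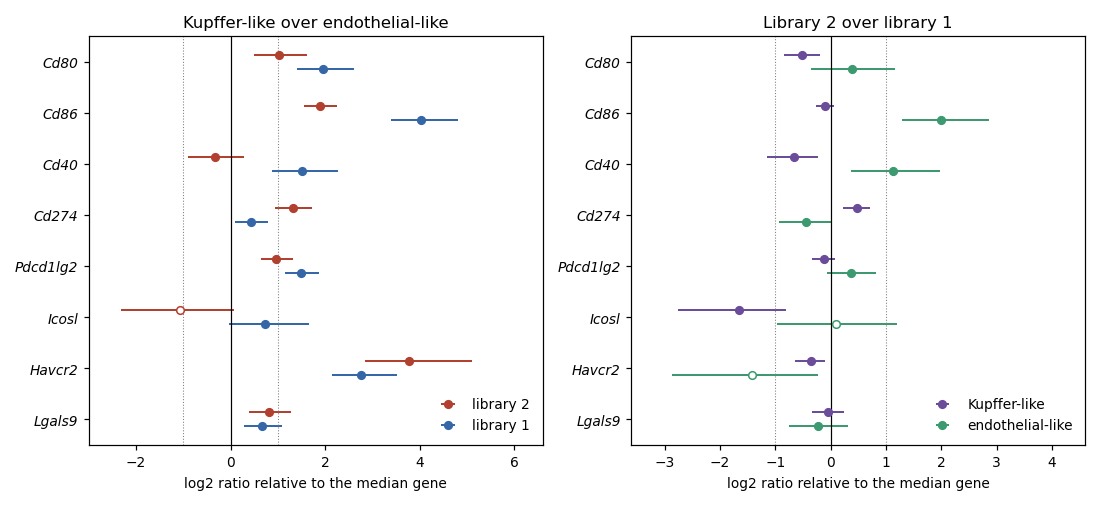
Ratios of fragments over each gene on a log2 axis, with the median gene at 0 (horizontal axis), for Kupffer-like over endothelial-like cells within each library (left) and for library 2 over library 1 within each class (right). Points are estimates, open where the gene had under 50 fragments, bars are 95% counting intervals and dotted lines mark 2-fold. Cd86 and Havcr2 lie far to the right on the left panel, and Icosl in Kupffer-like cells lies furthest left among the filled points on the right panel.

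Single tiles were compared in the same way. Of 339 tiles over the 8 genes, 7 in library 2 and 31 in library 1 had 50 fragments in both classes together, and 3 and 24 of these were at least 2-fold higher in Kupffer-like cells, against 18.3% and 38.6% of such tiles over the genome. In library 1, Kupffer-like cells gave 5511034 fragments and endothelial-like cells 1549676, so a tile passes the minimum mainly through them, and these counts describe the tiles that passed and not all tiles. In library 1, 1 tile was 2-fold lower, the Cd274 start described above, and 0 were in library 2, against 8.48% and 9.36% over the genome. The fragments were mostly shorter than the length wrapped around a nucleosome, at 56.9% to 72.7% of Kupffer-like fragments over a gene. Havcr2 in library 1 was the exception, at 75.6% (71.6 to 79.4). All fragments of Kupffer-like cells came to 62.1% in library 2 and 59.2% in library 1. The lowest share, 56.9% (42.2 to 70.7) for Cd40 in library 2, had an interval that included the share of all fragments there.

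Between the libraries, Kupffer-like cells had log2 ratios of library 2 over library 1 between -0.67 and 0.47 for 7 of the genes, leaving Icosl at -1.65 as the 1 of 8 that was at least 2-fold lower, where 3.79% of all genes tested were. None of the 8 was 2-fold higher (0), against 6.54% of all genes. Cd40 at -0.67 (-1.15 to -0.23), Cd80 at -0.52 (-0.85 to -0.20) and Havcr2 at -0.36 (-0.64 to -0.10) had intervals below 0 without reaching 2-fold. The intervals of Cd86 at -0.10 (-0.27 to 0.07), Pdcd1lg2 at -0.12 (-0.33 to 0.08) and Lgals9 at -0.04 (-0.34 to 0.24) included 0. Of the 39 tiles with 50 fragments, 5 were 2-fold lower in library 2 and 0 were higher, against 11.3% and 2.58% over the genome. One of them was the Icosl start and the other 4 lay in Cd80, Cd86 and Havcr2.

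**Figure D4:**
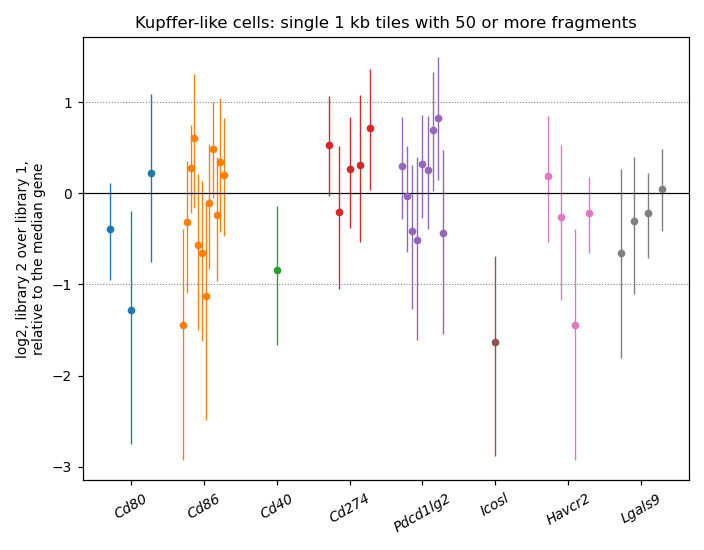
Log2 ratio of library 2 over library 1 in Kupffer-like cells, relative to the median gene (vertical axis), for each of the 39 tiles of 1 kb with at least 50 fragments, grouped by gene and ordered by position. Points are tiles, bars 95% counting intervals and dotted lines mark 2-fold. Tiles of Cd274 and Pdcd1lg2 lie between about -0.5 and 0.83, and the Icosl tile is the lowest at -1.63.

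The summed class markers also differed between the libraries and were lower in library 2. With pile-ups masked, the 10 Kupffer cell markers summed to 762 CPM in Kupffer-like cells of library 2 and 1035 CPM in those of library 1. The 12 endothelial markers summed to 1809 and 2941 CPM in endothelial-like cells, with none at 0 (0 in each). Median fragments per Kupffer-like cell were 12458 in library 2 and 16295 in library 1, and their median share in peaks 61.6% and 74.0%. Pile-ups held 9.37% and 0.436% of Kupffer-like fragments, and 0 of the Kupffer-like fragments over any of the 8 genes in either library. The part of these differences in the ratios was not tested, and the library, the mouse and its handling cannot be told apart.

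In endothelial-like cells, 6 genes reached 50 fragments between the libraries. Cd86 at 2.00 (1.29 to 2.86) and Cd40 at 1.12 (0.36 to 1.97) were at least 2-fold higher in library 2, where 6.95% of all genes were, and 0 were 2-fold lower, against 2.45%. With pile-ups masked Cd86 stood at 1.64 and Cd40 at 0.93, which left 1 gene called. Cd80 at 0.39 (-0.36 to 1.17), Pdcd1lg2 at 0.37 (-0.06 to 0.82), Lgals9 at -0.22 (-0.75 to 0.31) and Cd274 at -0.45 (-0.93 to 0.02) had intervals that included 0. Havcr2 had 8 and 20 fragments in library 2 and library 1, too few to be called.

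Kupffer-like cells were within 2-fold of cluster 5 for 7 of the 8 genes in both libraries, the exception being Icosl. The ratios of Kupffer-like over cluster 5 cells were 0.05 (-0.17 to 0.27) and -0.03 (-0.27 to 0.21) for Cd86 in library 2 and library 1, and -0.21 (-0.54 to 0.13) and -0.31 (-0.62 to 0.04) for Havcr2. Pdcd1lg2 was higher in Kupffer-like cells in both, at 0.40 (0.12 to 0.68) and 0.36 (0.05 to 0.70), and Cd274 in library 2 alone by its interval, at 0.72 (0.39 to 1.06) against 0.03 (-0.35 to 0.46), a difference between libraries that was not tested. Lgals9 was at 0.20 (-0.18 to 0.58) in library 2 and, with an interval above 0, at 0.57 (0.10 to 1.12) in library 1. Icosl was the 1 gene at least 2-fold lower in Kupffer-like cells, where 6.19% and 3.17% of all genes were, and 0 were 2-fold higher, against 7.39% and 5.97%. Between the libraries, the cluster 5 ratios of library 2 over library 1 ran from -1.02 for Icosl to 0.30 for Lgals9, with Icosl the 1 gene 2-fold lower, where 0.481% of all genes were, and 0 higher, against 2.88%.

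The smaller classes had few fragments over these genes. The 67 stellate-like cells of library 1 had 6.27 CPM (2.03 to 14.6) of Havcr2 and 22.6 CPM (13.4 to 35.7) of Cd86, but 72.7 CPM (55.2 to 94.0) of Pdcd1lg2. Hepatocyte-like cells of library 1 had 8.84 CPM (2.41 to 22.6) of each of Cd80, Cd86 and Cd40, on 4 fragments each. The unnamed cluster 3, with 142 cells of library 2 and a median of 34.6% of fragments in peaks, lay between the Kupffer-like and endothelial-like levels of that library for Cd86, at 75.4 CPM (68.2 to 83.3), and for Havcr2, at 28.3 CPM (23.9 to 33.3). It lay below both for Cd40, at 13.1 CPM (10.2 to 16.6), an interval that overlapped the Kupffer-like one. For Pdcd1lg2, its 48.7 CPM (42.9 to 55.1) overlapped the endothelial-like interval. With pile-ups masked, Pdcd1lg2 was at 58.9 CPM in cluster 3 and 44.8 CPM in endothelial-like cells. For Icosl it lay above both at 13.3 CPM, where 1 cell gave 42 of the 69 fragments, and masking brought it to 6.05 CPM.

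The other genes of the pathway, 57 in a list set by role, behaved less uniformly. In library 2, 37 had 50 fragments, of which 8 were at least 2-fold higher in Kupffer-like than in endothelial-like cells and 5 lower. In library 1, 44 had, of which 14 were higher and 3 lower. Of all genes tested, 10.0% were higher and 11.0% lower in library 2, and 12.2% and 9.57% in library 1. The medians were 0.25 and 0.25. Among B7 and related ligands, Cd83, a marker of activated presenting cells, had ratios of 2.58 (2.16 to 3.05) and 2.90 (2.39 to 3.52), and Vsig4, an inhibitory B7-related receptor for complement fragments on Kupffer cells, had 2.45 (1.68 to 3.41) and 3.47 (2.68 to 4.55). Lgals3, encoding galectin-3, had 2.53 (1.78 to 3.45) and 2.56 (1.81 to 3.54). On the endothelial side were Nectin3, an adhesion ligand, at -1.40 (-1.88 to -0.95) and -2.67 (-3.30 to -2.07), and Lgals1, encoding galectin-1, at -1.16 (-1.71 to -0.64) and -1.63 (-2.03 to -1.23). The remaining genes named by rank were Cd160 at 2.29, Tnfrsf14 at 2.05, Cd200 at -1.64, Pvr at -1.52 and Tnfrsf9 at -1.47 in library 2, and Cd48 at 2.89, Btla at 2.68, Nectin2 at -0.86, Hmgb1 at -0.92 and Cd28 at -1.06 in library 1.

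All 13 regulators of the ligands, such as Nfkb1, Irf1 and Jak2, reached the minimum in each library. Of them, 0 in library 2 and 1 in library 1 were 2-fold higher in Kupffer-like cells, and 0 were lower. Of the 7 TNF family ligands, 1 and 4 had 50 fragments, and 0 and 2 of these were 2-fold higher. Among receptors usually found on T cells, 1 of 7 in library 2 and 4 of 9 in library 1 were 2-fold higher, and 1 in each was lower. Over all genes, 10.0% and 12.2% were higher and 11.0% and 9.57% lower, and these small counts were not tested against those shares. Between the libraries in Kupffer-like cells, 48 genes were compared, and their counts were near the 6.54% higher and 3.79% lower of all genes: 3 were 2-fold higher in library 2, namely Nectin3 at 2.03 (1.42 to 2.68), the inhibitory B7 ligand Vtcn1 at 1.40 (0.74 to 2.06) and Tnfrsf9 at 1.25 (0.56 to 1.94), and 2 were lower, the butyrophilin-like gene Btnl2 at -1.59 (-2.33 to -0.97) and Tnfsf15 at -1.11 (-2.18 to -0.26). Cd160 at 0.86, Nectin2 at 0.70, Cd244a at -0.82, Icos at -0.87 and Btla at -0.97 were the next by size. In endothelial-like cells, 32 were compared, with Cd200 at 4.16 (2.53 to 7.55), Tnfrsf9 at 2.79 (1.89 to 3.96) and Marchf1, a ubiquitin ligase that lowers surface CD86, at 1.13 (0.83 to 1.44) the 3 that were higher in library 2. Cd160 at -1.06 and Tnfrsf14 at -1.01 were the 2 that were lower, where 6.95% of all genes were higher and 2.45% lower, and Nectin3, Cd83, Ceacam1, Nlrc5 and Traf6 came next at 0.74, 0.59, -0.96, -0.81 and -0.74.

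Across 9 profiles of a cluster in a library, the genes most like each of the 8 were sought by Pearson's r of log2(CPM + 1), as a description. Havcr2 was followed most closely by Evi2 (r = 0.997) and Evi2a (0.996), which lie on the same chromosome at distances of 33032 and 33045 kb from it. Cd80 came with Cd101 (0.991) and Ms4a4b (0.988), and Cd86 with Tagap (0.988) and Ptprc (0.984), the gene of the pan-leukocyte protein CD45. Cd274 was nearest to Gm6657 (0.980) and Mtpap (0.970), Pdcd1lg2 to Cenpo (0.982) and Rps9 (0.978), Lgals9 to Eif4g3 (0.977) and Slc2a9 (0.961), Cd40 to Palm (0.971) and Rtl5 (0.966), and Icosl to Popdc2 (0.948) and Tm9sf2 (0.945). Among the 8 themselves, the closest pair was Cd80 and Havcr2 (0.92) and the least alike were Cd274 and Icosl (0.17). The profiles share libraries, depth and cells of the same classes, and 14686 or 14687 genes were searched for each.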

How the data were processed

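The deposited fragment table gives counts of read pairs for each unique fragment and barcode, not normalized, and a deposited per-barcode table gives counts of fragments in peaks with the authors' cell calls. Cell Ranger ATAC 1.2.0, Signac 0.2.4 and build GRCm38.p5 appear in the submitters' processing notes; no threshold is stated for the cell calls. Genes and promoters are from RefSeq GRCm38.p6, which shares primary chromosome coordinates with that build.

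Called cells were kept with 1000 fragments in peaks, 15% or more of their fragments there and no more than 5% over blacklisted regions. Bins of 5 kb seen in 10 cells, without those over the 8 genes and the pathway genes, were weighted by TF-IDF, reduced to 30 components (scikit-learn 1.9.0) and clustered by Leiden at resolution 0.5 (leidenalg 0.10.2, 20 neighbours). A cluster was named from 14 marker lists (110 genes) by a score of at least 0.25 with a lead of 0.2. Doublets, marked by overlap at q 0.01 or against simulated pairs (100 cells in library 2 and 94 in library 1), were kept in the counts and left out as an alternative. A pile-up was a 20 kb stretch where a cell had 10 fragments and 10 times the number expected.

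Each fragment counted once per window. Levels are CPM of all fragments of a class, with exact Poisson intervals, and shares have exact binomial intervals. Summed marker levels leave pile-ups out of both the counts and the totals. Log2 ratios were computed after adding 0.5 to each count, have exact intervals from the conditional binomial distribution, and were tested on simulated data. Called means at least 2-fold from the median gene, with at least 50 fragments summed over both sides of the comparison. All 8 genes are named in every comparison, and of the pathway list the 5 highest and 5 lowest. The genes, lists and tests were chosen with earlier results of these data known.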

Additional observations from a re-analysis of the deposited data

Results flagged for a closer look

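Of the genes with 50 fragments in the libraries together in each class, 5 had ratios of library 2 over library 1 of opposite sign in Kupffer-like and endothelial-like cells, and none of these differences was tested. Cd40 stood at -0.67 in Kupffer-like and 1.12 in endothelial-like cells, and both intervals left out 0. Cd86 stood at -0.10 and 2.00, Cd80 at -0.52 and 0.39, Cd274 at 0.47 and -0.45, and Pdcd1lg2 at -0.12 and 0.37. For these 4 genes at least 1 of the intervals included 0. Of the genes with 50 fragments in the classes together in each library, Cd40 was also the 1 whose Kupffer-like over endothelial-like ratio changed sign between the libraries, at -0.32 in library 2 and 1.50 in library 1, with an interval in library 2 that included 0. The difference between libraries was not tested.

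Barcodes that were not called cells carried fragments of all 8 genes. In library 2 these barcodes had 9480832 fragments, and the genes ran from 8.02 CPM for Icosl to 49.0 CPM for Cd86. In library 1 they had 1914615 fragments, and the genes ran from 11.5 CPM for Icosl to 90.9 CPM for Cd86. Endothelial-like cells of library 2 had 41.6 CPM of Cd86, close to the 49.0 CPM outside cells, while those of library 1 had 11.6 CPM against 90.9 CPM outside cells. Havcr2, at 21.7 and 44.9 CPM outside cells of library 2 and library 1, was at 4.05 and 12.9 CPM in endothelial-like cells.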

How the results depend on the processing

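No paired analysis was possible because each genotype has 1 library and no suffix is tied to a genotype. With 1 kb on each side of the gene start in place of the window, the median of Kupffer-like over endothelial-like ratios was 0.25 in library 2 and 0.87 in library 1, with 0 and 2 genes 2-fold higher. For library 2 over library 1 this setting gave 2 Kupffer-like genes 2-fold lower, and in endothelial-like cells a median of -0.53 with 0 genes higher. Counting insertions, or dropping the minimum of 50 fragments, gave 1 gene 2-fold lower in library 2 for Kupffer-like over endothelial-like cells and 1 for library 2 over library 1 in endothelial-like cells, since genes with few fragments then entered. The count of genes higher in library 2 in endothelial-like cells was 1 without flanks, with pile-ups masked, without marked doublets and in cells with 50% of fragments in peaks. With cells thinned to 5000 fragments, 0 Kupffer-like genes were 2-fold lower in library 2, and no gene reached the minimum in endothelial-like cells (0 genes). The other 125 summary values moved by less than their margin. Of the single-gene values, 303 moved by less than theirs and 21 by more, and none of the calls changed sign (0). The ratio of Icosl in Kupffer-like cells ran from -1.86 to -1.45. Scaling by fragments near transcription start sites moved the median gene from -0.20 to 0.00 in endothelial-like cells between libraries, and no ratio given relative to it. For Kupffer-like over endothelial-like ratios the setting with 50% in peaks was chosen after seeing the data, as were the comparisons with cluster 5.

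Depth limits the stellate-like and hepatocyte-like values most, and among the ratios those of Icosl and Havcr2, which rest on 8 to 20 endothelial-like fragments per library. The Cd86 and Cd40 ratios that use endothelial-like cells of library 1 are limited likewise, resting there on 18 and 20 fragments. Intervals cover counting error only, and with 1 library per genotype no spread between animals is known. A fragment over a gene body is not expression, and overlapping genes share fragments.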
